A study of Homo sapiens with 6 samples.

Results

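The transcripts described here encode the proteins that bring secretory and membrane proteins to the endoplasmic reticulum (ER), pass them through its membrane, trim them and fold them. The set was given as a list of 44 gene symbols by function, drawn up with earlier results of these data known. All 44 were among the 20111 genes of the expression table, and all 44 were among the 11690 genes that could be tested. RNA had been sequenced from MDA-MB-231, an established human breast cancer line labelled triple negative. Cells received siControl, a control siRNA, siNCOA3, which targets the nuclear receptor coactivator NCOA3, or siSHC1, which targets the signalling adaptor SHC1, and RNA was taken after 24 h or 48 h. There was 1 library for each siRNA and time, 6 in all, so that the 2 times served as the replicates of an siRNA. Separate cultures are not stated in the labels, so p-values reflect only how far these 6 libraries spread, and that spread may be technical.

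A ribosome that begins to make a secretory protein is bound by the signal recognition particle (SRP), which docks on the SRP receptor and hands the chain to the SEC61 channel. Signal peptidase removes the targeting peptide, and inside the ER the chain is folded by lectin chaperones, by the HSP70 protein HSPA5 (BiP) and its cofactors, and by disulfide isomerases. When unfolded chains build up, the sensors ERN1 (IRE1), EIF2AK3 (PERK) and ATF6 switch on the unfolded protein response, which raises many of these folding genes through sites in their promoters, the best known being the ER stress response element (ERSE).

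The promoters of the whole set were searched for ERSE. This search was chosen after the changes of the folding genes had been seen (values further on). Any part of the element in those changes was not tested. The promoters were RefSeq windows on GRCh38.p14 from 250 bases before to 50 after each gene start, and 40 of the 44 genes had one (not SRPR, TRAM1, SPCS1 and PDIA3). ERSE, searched on both strands as CCAAT, 9 bases of any kind and CCACG, was in 7 of these 40 genes. Over all 27305 genes with a promoter of this length the share was 0.0916%. ERSE-II, searched on both strands as ATTGG, 1 base of any kind and CCACG, was in 3 of the 40 genes and in 0.0696% of all genes. The promoters of HSPA5 and HSP90B1, the central HSP70 and HSP90 chaperones of the ER, are shown up to the gene start, 5′ to 3′ on the strand of the gene, with the fixed bases of each ERSE in capitals.
HSPA5, chr9:125241344-125241593, minus strand: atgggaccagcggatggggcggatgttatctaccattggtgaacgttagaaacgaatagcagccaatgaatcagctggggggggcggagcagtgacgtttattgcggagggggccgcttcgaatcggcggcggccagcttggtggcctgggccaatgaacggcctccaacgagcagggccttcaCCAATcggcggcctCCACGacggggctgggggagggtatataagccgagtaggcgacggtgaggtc
HSP90B1, chr12:103930160-103930409, plus strand: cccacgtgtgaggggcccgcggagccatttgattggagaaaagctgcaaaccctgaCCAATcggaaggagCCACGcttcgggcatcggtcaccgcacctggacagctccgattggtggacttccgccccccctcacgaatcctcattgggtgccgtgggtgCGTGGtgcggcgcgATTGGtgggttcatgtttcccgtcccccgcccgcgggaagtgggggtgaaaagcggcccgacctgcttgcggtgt
Counted from the gene start, the HSPA5 site began at -66. HSP90B1 held 1 site on its own strand, beginning at -194, and 1 on the opposite strand, at -89, which therefore reads as its reverse complement in the line above.

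The other matches are given as sites only, each written on the strand that holds it, with the fixed bases in capitals. The first 5 genes held ERSE and the last 3 ERSE-II, of which HYOU1 had 2 copies.
CALR, chr19:12938384-12938402, minus strand: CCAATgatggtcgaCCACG
CANX, chr5:179698778-179698796, plus strand: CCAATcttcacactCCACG
PDIA6, chr2:10812853-10812871, minus strand: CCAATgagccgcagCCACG
CRELD2, chr22:49918554-49918572, minus strand: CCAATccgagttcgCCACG
XBP1, chr22:28800603-28800621, minus strand: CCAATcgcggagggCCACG
HYOU1, chr11:119057274-119057284, plus strand: ATTGGaCCACG
HYOU1, chr11:119057380-119057390, plus strand: ATTGGaCCACG
SDF2L1, chr22:21642114-21642124, minus strand: ATTGGtCCACG
HERPUD1, chr16:56932025-56932035, plus strand: ATTGGgCCACG
Of these 10 genes 8 encode folding proteins, XBP1 is a transcription factor of the unfolded protein response and HERPUD1 acts in ER-associated degradation. In all, 5 patterns were searched. The other 3 were the UPRE word, TGACG followed directly by TGG, which ends in the reverse complement of CCACG, and CCAAT and CCACG, which are parts of ERSE. The UPRE word was in 5 of the 40 genes (SRP19, SEC62, SSR3, SSR4 and HYOU1) and in 0.927% of all genes with a promoter. CCAAT was in 29 and CCACG in 33 of the 40 genes, and in 39.7% and 42.1% of all genes with a promoter. A match describes the letters of the window and does not show that a factor binds there.

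Values are FPKM scaled between libraries, and a change is the difference of log2(scaled FPKM + 1), with its standard error (SE) from a limma fit over all tested genes with terms for siRNA and time, 2 libraries per siRNA. Genes were called at a Benjamini-Hochberg adjusted p under 0.05. Relative to siControl at 24 h, depth was estimated at 1.01 to 1.45, highest in siControl at 48 h, and mitochondrial transcripts held 17.3% to 18.7% of FPKM. NCOA3 was left at 15.4% and 16.3% of siControl after siNCOA3, and SHC1 at 13.4% and 13.3% after siSHC1, at 24 h and 48 h. The mesenchymal marker VIM stood between 916 and 1011 scaled FPKM, PGR was listed at 0 in all 6 libraries and ESR1 was at 0.0922 or below, whereas ERBB2 was at 26.5 to 34.9. Of 5 epithelial markers CDH1 was at 0.572 or below, EPCAM at 6.77 to 10.7, KRT8 at 217 to 283, KRT18 at 163 to 206 and KRT19 at 162 to 328. Their summed level was 555 and 608 in siControl, 621 and 673 in siNCOA3 and 680.4 and 824 in siSHC1, at 24 h and 48 h. KRT19 was called higher after siSHC1, by 0.64 ± 0.09 over siControl (limma adjusted p = 0.0147) and by 0.67 ± 0.09 over siNCOA3 (limma adjusted p = 0.00872). Of all genes tested 5.35% were called higher and 4.4% lower in siSHC1 against siNCOA3. Of 6 markers of this line 2 were called there, CAV1 at 0.34 ± 0.06 (limma adjusted p = 0.0208) and ZEB1 at -0.50 ± 0.11 (limma adjusted p = 0.0395). Neither was called against siControl after either siRNA. The part of these differences in the results below was not tested. The leukocyte marker PTPRC was at 0.0549 or below. RNA from fewer cells and less RNA per cell cannot be told apart in such bulk libraries.

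Of the 2 subunits of the SRP receptor, SRPR was called lower after siSHC1 and SRPRB was not called. SRPR (now SRPRA, chromosome 11), the alpha subunit that meets SRP at the membrane, stood at 61.0 scaled FPKM in siControl, 59.8 in siNCOA3 and 18.7 in siSHC1 at 24 h. At 48 h it stood at 58.4, 63.9 and 22.4. Both siSHC1 libraries lay far below the other 4, at 30.6% and 38.3% of siControl. SRPR fell by 1.502 ± 0.10 on the log2 scale after siSHC1 (SE, limma adjusted p = 0.00191), the 7th lowest change of all 11690 genes. Against siNCOA3 the change was -1.55 ± 0.10 (limma adjusted p = 0.000965). Without a filter on low values the first of these calls was lost (limma adjusted p = 0.160), as was the second (limma adjusted p = 0.140).

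SRPRB, the beta subunit that anchors the receptor in the membrane, was at 9.88, 9.98 and 10.2 scaled FPKM in siControl, siNCOA3 and siSHC1 at 24 h and at 8.50, 10.2 and 9.13 at 48 h. Its change after siSHC1 was 0.07 ± 0.11 (limma adjusted p = 0.718). FPKM are per length, so the subunits can be set beside each other: the level of SRPR over that of SRPRB was 6.18, 5.997 and 1.82 at 24 h and 6.88, 6.25 and 2.45 at 48 h. SRPR is overlapped on the opposite strand by FOXRED1 and FAM118B, and whether strand was used in quantification is not given in the sources used here. FOXRED1 was at 13.6 to 15.5 scaled FPKM in the 6 libraries and FAM118B at 10.9 to 13.97, and neither was called in any comparison.

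RRBP1 and CKAP4 are membrane proteins of the rough ER that hold ribosomes and microtubules. RRBP1, the ribosome-binding protein, stood at 172 scaled FPKM in siControl, 85.6 in siNCOA3 and 169 in siSHC1 at 24 h. At 48 h the levels were 176, 84.7 and 182. The 2 siNCOA3 libraries were alike, at 49.8% and 48.2% of siControl, and did not overlap with the other 4. RRBP1 fell by 1.02 ± 0.07 after siNCOA3 (SE, limma adjusted p = 0.00621), the 15th lowest change of all genes tested. The call was lost without the siControl library of 24 h (limma adjusted p = 0.0649), without that of 48 h (limma adjusted p = 0.0516), without trend and robust moderation (limma adjusted p = 0.0852) and without a filter (limma adjusted p = 0.246), with changes between -1.03 and -1.01. Against siNCOA3, RRBP1 was higher after siSHC1 by 1.03 ± 0.07 (limma adjusted p = 0.00136), and 0.01 ± 0.07 separated siSHC1 from siControl.

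CKAP4 stood at 76.1, 71.5 and 77.6 scaled FPKM at 24 h and at 83.7, 73.5 and 84.1 at 48 h. Its change after siNCOA3 was -0.14 ± 0.07 and was not called (limma adjusted p = 0.588). The level of RRBP1 over that of CKAP4 was 2.26, 1.20 and 2.17 at 24 h and 2.10, 1.15 and 2.17 at 48 h, lowest in the siNCOA3 library at each time. An earlier search of these same fold changes had singled out a 7-base word for each siRNA, GCCCATC among genes lower after siSHC1 and GTCAAGA among genes lower after siNCOA3. Only the longest coding transcript of each gene was searched here, for the exact word. GCCCATC was not in that 3′ UTR of SRPR, and GTCAAGA was not in that of RRBP1. Any part of these words in the changes was not tested. Of the 44 genes, SEL1L held GCCCATC, and SRPR, SEC62, SSR1 and HSPA5 held GTCAAGA, against 8.33% and 8.19% of 18845 genes.

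**Figure D1:**
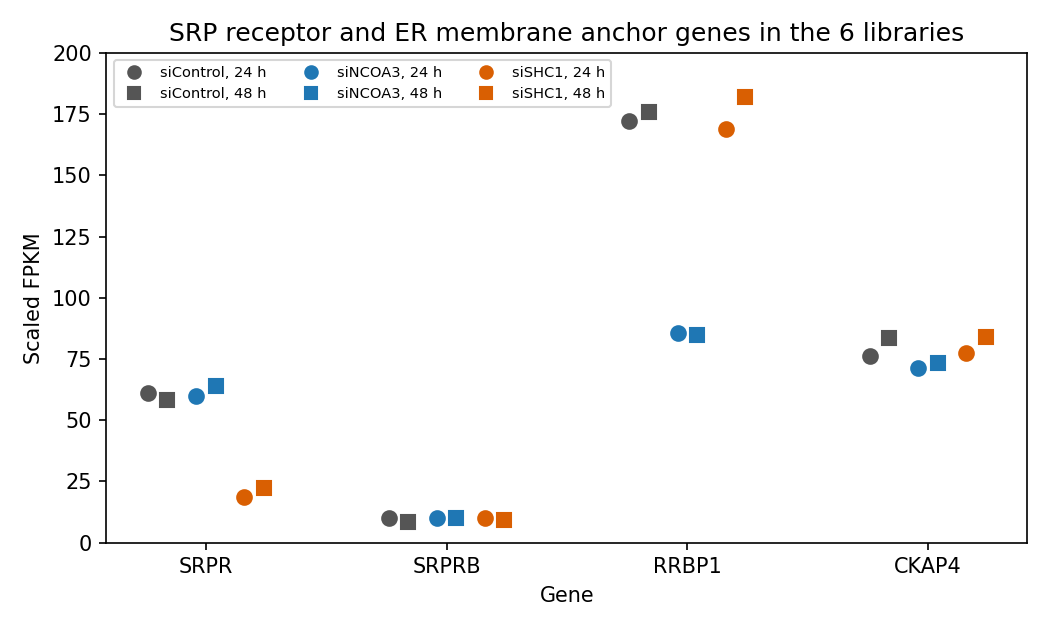
Scaled FPKM of the SRP receptor subunits SRPR and SRPRB and of the membrane anchors RRBP1 and CKAP4. Each point is 1 library, circles for 24 h and squares for 48 h, grey for siControl, blue for siNCOA3 and orange for siSHC1. SRPR is low in both siSHC1 libraries (18.7 and 22.4), and RRBP1 is low in both siNCOA3 libraries (85.6 and 84.7).

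RRBP1 was the only gene of the set called in siNCOA3 against siControl, against 0.111% of all tested genes called lower in this comparison and 0% called higher. Another 3 of the 44 had an unadjusted p under 0.05, namely HSPA5, PDIA6 and MANF, all with negative changes. So had 1226 of all 11690 genes tested, in either direction. In siSHC1 against siControl 4 of the 44 were called. SSR2, CALR and HYOU1 were higher, where 3.11% of all genes were, and SRPR was lower, where 3.32% were. In siSHC1 against siNCOA3 9 were called: 8 higher, where 5.35% of all genes were, and SRPR lower, where 4.4% were. Over the 44 genes the median change was -0.0040, 0.14 and 0.18 in these comparisons, beside -0.00064, 0.0035 and 0.0031 over all genes tested. The comparisons share their libraries, and their values are therefore not independent of each other.

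The 6 SRP proteins, which read the signal sequence (SRP54) or build the particle, had no call in any comparison, and their summed level ran from 432 to 451 scaled FPKM over the 6 libraries. Their changes lay between -0.07 and 0.13 after siNCOA3 and between -0.14 and 0.19 after siSHC1. SRP54, the GTPase that binds the signal sequence, had the largest difference between siSHC1 and siNCOA3, at 0.26 ± 0.10 (limma adjusted p = 0.141). Its levels were 33.7, 35.9 and 39.9 at 24 h and 41.1, 35.0 and 45.6 at 48 h for siControl, siNCOA3 and siSHC1. SRP19, which helps SRP54 join the particle, was at 49.2, 49.5 and 54.7 at 24 h and at 44.2, 52.8 and 49.5 at 48 h. Its change of 0.13 ± 0.09 was the largest of the particle after siNCOA3, with both siNCOA3 libraries above both siControl libraries.

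Of the translocon genes SEC61A1, SEC61B, SEC61G, SEC62, SEC63 and TRAM1, none was called. In siSHC1 against siControl 2 had an unadjusted p under 0.05 (SEC61B and SEC61G), as had 3077 of all 11690 genes tested. SEC61G, the small gamma subunit of the channel, was at 134, 136 and 141 scaled FPKM at 24 h and at 114, 147 and 187 at 48 h. Its siSHC1 libraries were the highest at each time, by 0.07 at 24 h and 0.71 at 48 h over siControl, single libraries with no test. The fitted change was 0.39 ± 0.14 (limma adjusted p = 0.144). SEC63, which couples the channel to HSPA5, was at 15.9, 16.4 and 17.4 at 24 h and 15.4, 17.1 and 12.4 at 48 h, with no order of the siRNAs common to both times.

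The 4 subunits of the TRAP complex sit beside the channel and help certain signal sequences to open it. SSR2, the beta subunit, stood at 110.3, 123 and 139.5 scaled FPKM at 24 h and at 118, 119.7 and 148 at 48 h. Both siSHC1 libraries lay above the other 4, and the rise over siControl was 0.33 ± 0.07 (limma adjusted p = 0.0474). The call was held in 6 of 15 alternative settings, with adjusted p between 0.0392 and 0.246. SSR4, the delta subunit, was at 112, 135 and 133 at 24 h and 128, 135 and 161 at 48 h, a change of 0.29 ± 0.09 after siSHC1 that was not called (limma adjusted p = 0.0957). SSR1 at 0.19 ± 0.07 and SSR3 at -0.04 ± 0.08 were not called either.

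The signal peptidase genes SPCS1, SPCS2, SPCS3, SEC11A and SEC11C had no call, with changes after siSHC1 between -0.18 and 0.22. SEC11C, 1 of the 2 catalytic subunits, was at 16.1, 14.1 and 18.4 scaled FPKM at 24 h and 11.9, 13.6 and 14.5 at 48 h. The other catalytic subunit, SEC11A, was at 59.0 to 64.0 in the 6 libraries, the narrower range in proportion. SPCS3, an accessory subunit that the complex needs, had the largest change with time of the whole set. It was at 22.8, 20.1 and 17.3 at 24 h and 13.8, 16.7 and 13.9 at 48 h, a change of -0.41 ± 0.10 that was not called (limma adjusted p = 0.281).

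The folding genes are 15: the lectin chaperones CANX and CALR, HSPA5, HSP90B1, HYOU1, DNAJB9, DNAJB11, DNAJC3 and SDF2L1, the disulfide isomerases PDIA3, PDIA4, PDIA6 and P4HB, and the secreted factors MANF and CRELD2. They were put together by role after the values had been seen. In siSHC1 against siNCOA3 all 15 had a change above 0, with a median of 0.46, and 7 were called. Of all 11690 genes tested 5918 were above 0 and 5.35% were called higher. In all 15 both siSHC1 libraries lay above both siNCOA3 libraries, as they did in 26 of the 44 genes of the set and in 29.5% of all genes tested. The median change of the 25 genes of targeting, translocation and processing in the same comparison was 0.06.

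CALR, a calcium-binding lectin chaperone, stood at 691 scaled FPKM in siControl, 687 in siNCOA3 and 901 in siSHC1 at 24 h. At 48 h it stood at 811, 673 and 1106. The siSHC1 libraries were above the other 4, and at 48 h siNCOA3 was below siControl. CALR rose by 0.41 ± 0.08 over siControl (limma adjusted p = 0.0405) and by 0.55 ± 0.08 over siNCOA3 (limma adjusted p = 0.0146). The first call was held in 8 of 15 alternatives and the second in 11. CANX, the membrane-bound lectin chaperone, was at 402, 396 and 459 at 24 h and 417, 381 and 441 at 48 h, and its change of 0.21 ± 0.06 over siNCOA3 was not called (limma adjusted p = 0.0770).

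HSPA5, the HSP70 chaperone of the ER, stood at 152, 145 and 192 scaled FPKM at 24 h and at 188, 139 and 211 at 48 h. It was highest after siSHC1 and lowest after siNCOA3 at both times. The difference between siSHC1 and siNCOA3 was 0.50 ± 0.09 (limma adjusted p = 0.0253), a call held in 9 of 15 alternatives. Against siControl neither change was called, at 0.25 ± 0.09 after siSHC1 (limma adjusted p = 0.149) and -0.25 ± 0.09 after siNCOA3 (limma adjusted p = 0.439). HYOU1, a large HSP70 relative that exchanges the nucleotide of HSPA5, was at 67.0, 64.5 and 89.4 at 24 h and 71.5, 62.9 and 87.0 at 48 h. Both siSHC1 libraries lay above the other 4. HYOU1 rose by 0.35 ± 0.08 over siControl (limma adjusted p = 0.0492), held in 3 of 15 alternatives, and by 0.46 ± 0.08 over siNCOA3 (limma adjusted p = 0.0184), held in 10.

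HSP90B1 (GRP94), the HSP90 of the ER, stood at 253, 254 and 312 scaled FPKM at 24 h and at 302, 247 and 381 at 48 h. At 24 h siControl and siNCOA3 were level, and at 48 h siControl was higher. Its change over siNCOA3 was 0.46 ± 0.09 (limma adjusted p = 0.0285), held in 10 of 15 alternatives. Over siControl it was 0.32 ± 0.09 and was not called (limma adjusted p = 0.0855). The HSPA5 cofactors DNAJB11, DNAJB9 and DNAJC3 were at 0.47 ± 0.12, 0.30 ± 0.12 and 0.25 ± 0.09 over siNCOA3, none called, DNAJB11 being nearest to the threshold (limma adjusted p = 0.0505). SDF2L1, a partner of the J-domain proteins, had the smallest difference of the 15, at 0.16 ± 0.09 (limma adjusted p = 0.285).

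P4HB, a disulfide isomerase and the most abundant transcript of the 44 per length, stood at 835, 884 and 1079 scaled FPKM at 24 h and at 1059, 901 and 1430.2 at 48 h. At each time siSHC1 was highest. P4HB rose by 0.48 ± 0.09 over siNCOA3 (limma adjusted p = 0.0279), held in 9 of 15 alternatives, while 0.40 ± 0.09 over siControl just missed the threshold (limma adjusted p = 0.0535). PDIA6, an isomerase that works with HSPA5, was at 130.0, 103 and 140.5 at 24 h and 144, 96.6 and 169 at 48 h. Both siNCOA3 libraries were the lowest of the 6. PDIA6 was higher after siSHC1 than after siNCOA3 by 0.62 ± 0.10 (limma adjusted p = 0.0155), held in 12 of 15 alternatives, and its change of -0.45 ± 0.10 after siNCOA3 was not called (limma adjusted p = 0.255). PDIA3, the isomerase of glycoproteins, and PDIA4 differed by 0.34 ± 0.09 and 0.31 ± 0.10 and were not called.

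MANF, a small secreted protein that binds HSPA5, had the largest difference of the folding genes. It stood at 45.6, 38.5 and 56.3 scaled FPKM at 24 h and at 56.6, 36.7 and 66.5 at 48 h, lowest after siNCOA3 at both times. The change between siSHC1 and siNCOA3 was 0.69 ± 0.11 (limma adjusted p = 0.0155), held in 12 of 15 alternatives, and that between siNCOA3 and siControl was -0.42 ± 0.11 and was not called (limma adjusted p = 0.314). CRELD2, another secreted protein induced by ER stress, was at 0.30 ± 0.11 between siSHC1 and siNCOA3 (limma adjusted p = 0.118). Among the 15 genes, the 8 with ERSE or ERSE-II had a median of 0.46 in that comparison with 5 called. The 6 with neither motif had a median of 0.39 with 2 called, P4HB and MANF. Of all genes tested 5.35% were called higher there. The groups by motif overlapped and were not tested against each other.

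The calls of folding genes between siSHC1 and siNCOA3 depended mostly, though not only, on the libraries of 48 h. Of the 7 folding genes called there, CALR alone was called without the siNCOA3 library of 48 h, and none without the siSHC1 library of 48 h, when SRPR and RRBP1 were still called. The folding genes called in the full fit all stayed called without either siControl library. HYOU1 was not called without the siNCOA3 or the siSHC1 library of 24 h, though its single-library difference was 0.46 at both times. HSPA5 was not called without the siSHC1 library of 24 h. PDIA3 was called without the siNCOA3 library of 24 h, and DNAJB11 without the siSHC1 library of 24 h. Without the siNCOA3 or the siSHC1 library of 48 h all 15 changes stayed above 0, with medians of 0.30 and 0.29. Summed over the 15 genes, the level was 2916 scaled FPKM in siControl, 2903 in siNCOA3 and 3612 in siSHC1 at 24 h, and 3436, 2860 and 4344 at 48 h, so that siSHC1 was highest at both times and siNCOA3 was below siControl at 48 h. In siControl at 24 h P4HB and CALR alone held 835 and 691 of this sum. In siSHC1 at 48 h they held 1430 and 1106. Over the 15 genes, single libraries gave a median difference from siControl of -0.05 at 24 h and -0.27 at 48 h for siNCOA3. For siSHC1 it was 0.19 and 0.23. In the fit 14 of the 15 were below 0 after siNCOA3, where 5864 of all 11690 genes tested were. The median of the 15 was -0.14, with 0 called (limma, 3 at an unadjusted p under 0.05, beside 1226 of all genes tested). Without the siNCOA3 library of 48 h 10 of 15 were below 0. Of all 11690 genes tested, 5926 were above 0 after siSHC1 and 3.11% were called higher. Among the folding genes 15 of 15 were above 0, with a median of 0.23 and 2 called. Without the siControl library of 24 h these were 14 of 15, a median of 0.15 and 0 called, and without the siSHC1 library of 48 h 15 of 15, a median of 0.16 and 0 called (limma). Without the siControl library of 48 h the median was 0.24, again with 0 called.

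**Figure D2:**
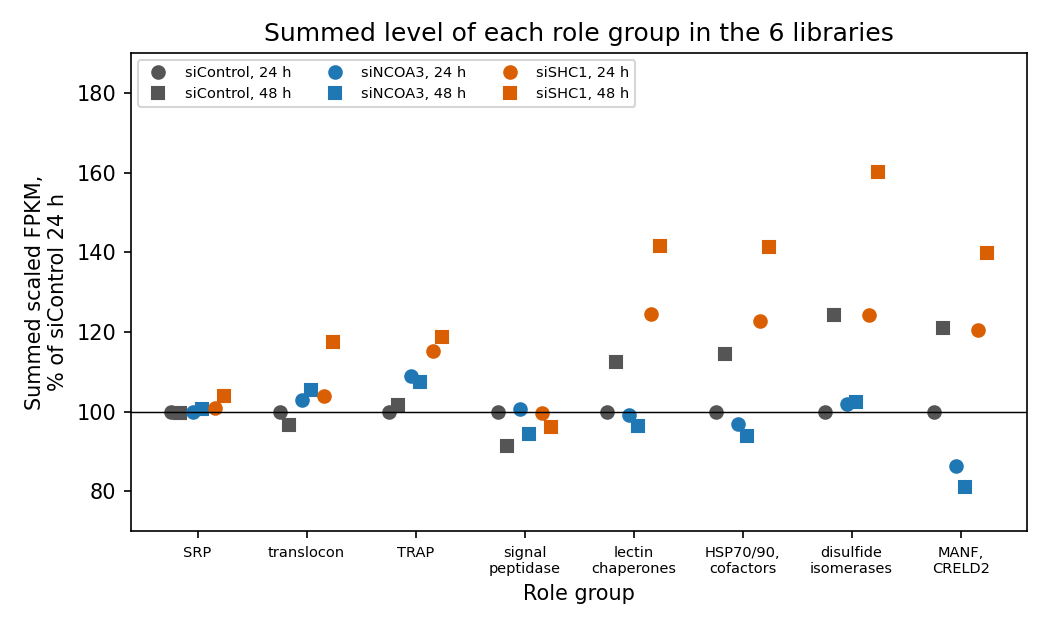
Summed scaled FPKM of 8 role groups in each library, as a percent of siControl at 24 h, on an axis that starts at 70 rather than 0. Circles are 24 h and squares 48 h, grey siControl, blue siNCOA3 and orange siSHC1. SRP stays between 99.6% and 104%. The disulfide isomerases reach 160.0% after siSHC1 at 48 h, when siControl itself is at 124%. P4HB holds 1430 of the 1899 scaled FPKM summed in that siSHC1 library.

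Between 24 h and 48 h 0 of the 44 genes were called (limma), against 0.0257% of all genes tested. An unadjusted p under 0.05 was found for 6 of the 44, and for 1660 of all 11690 genes tested. The 6 were SSR3, SPCS3 and SEC11C, with negative changes, and CALR, P4HB and XBP1, with positive ones. P4HB at 0.26 ± 0.08 (limma adjusted p = 0.288) was called when either siNCOA3 library was left out. The folding genes differed by siRNA in single libraries: 12 of 15 were higher at 48 h in siControl and 12 of 15 in siSHC1, against 2 of 15 in siNCOA3. Over all genes tested these shares were 50.8%, 52.4% and 52.2%. With 1 library for each siRNA and time, a difference between siRNAs in the change with time could not be tested.

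**Figure D3:**
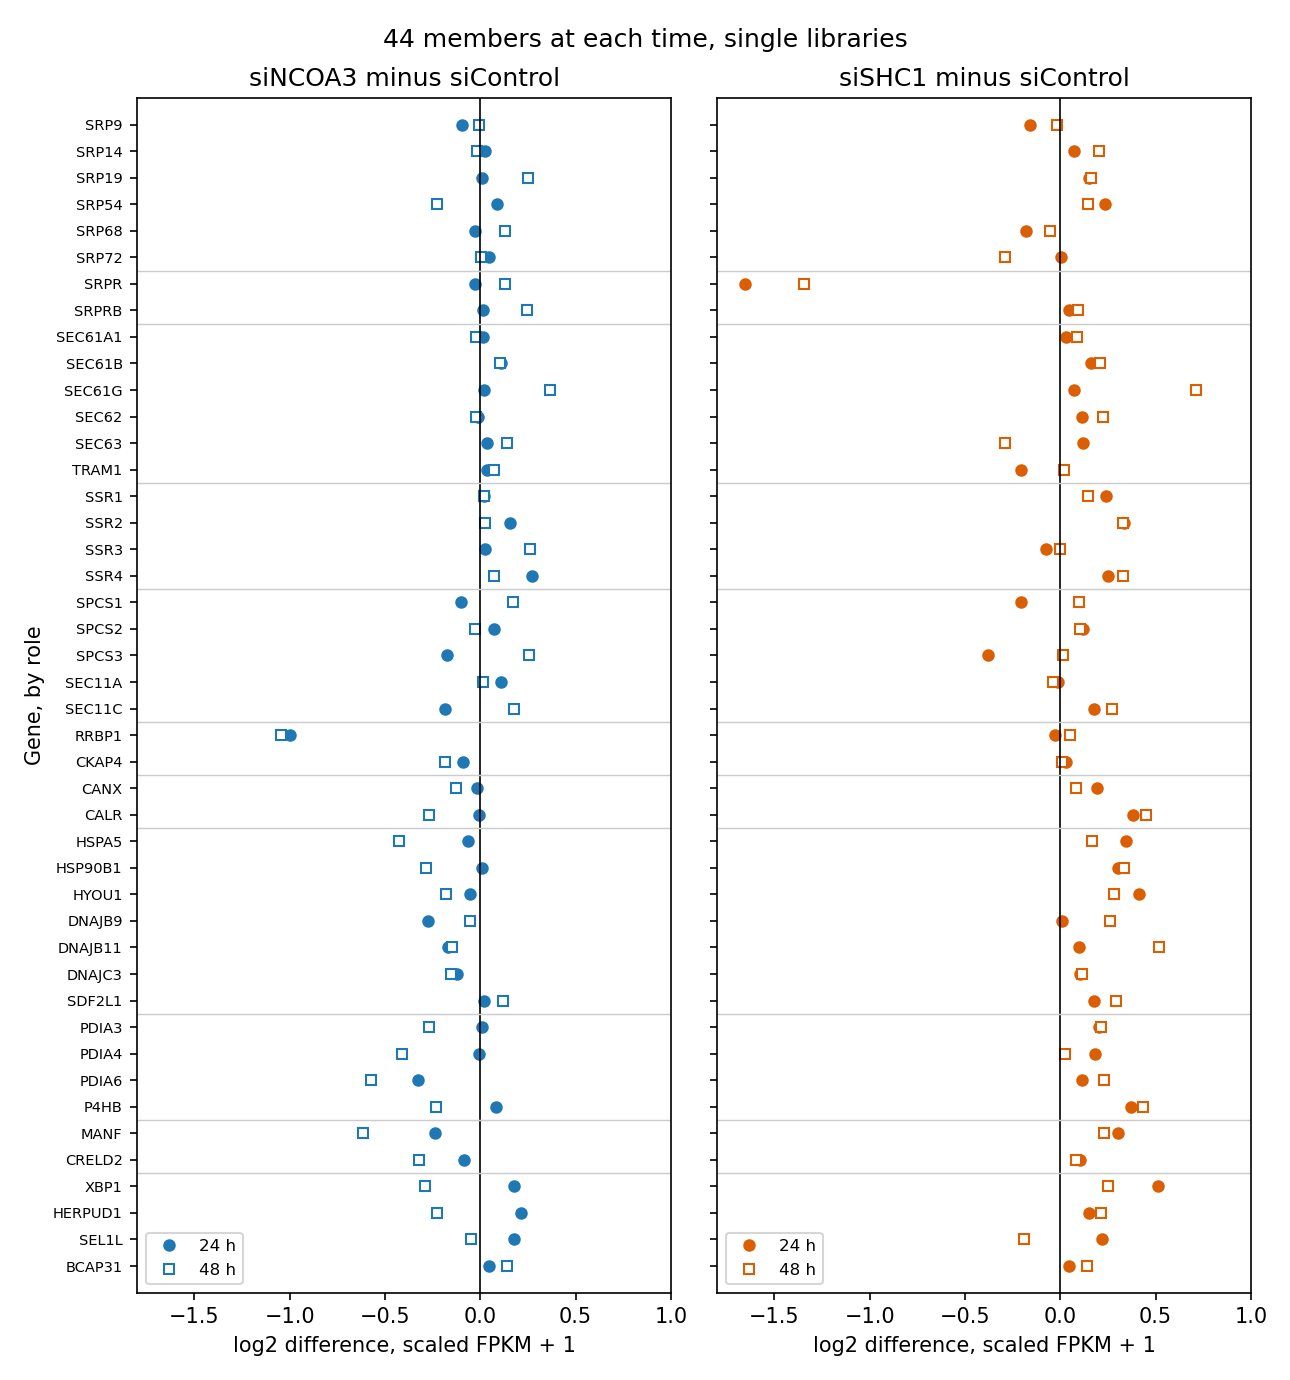
Log2 difference from siControl of each of the 44 genes in single libraries, siNCOA3 on the left and siSHC1 on the right, with filled circles for 24 h and open squares for 48 h. Genes are grouped by role, from SRP at the top to stress regulators at the bottom. RRBP1 on the left and SRPR on the right stand apart at both times, and the folding genes lie to the right of 0 after siSHC1.

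The last 4 genes are regulators and degradation factors. XBP1, whose spliced form is a transcription factor of the unfolded protein response, stood at 35.8, 40.6 and 51.6 scaled FPKM at 24 h and at 50.3, 41.0 and 60.0 at 48 h. It was highest after siSHC1 at each time, with changes of 0.38 ± 0.12 over siControl (limma adjusted p = 0.102) and 0.44 ± 0.12 over siNCOA3 (limma adjusted p = 0.0609), neither called. Gene-level FPKM do not separate its spliced and unspliced forms. HERPUD1 and SEL1L, which serve the HRD1 ubiquitin ligase, and BCAP31, a membrane sorting receptor, were not called. Their changes over siControl after siSHC1 were 0.18 ± 0.13, 0.01 ± 0.12 and 0.09 ± 0.07.

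Further genes of these pathways were taken from 9 lists, of which 91 symbols were in the table and 89 were tested. After siNCOA3 0 of the 89 were called (limma, 13 at an unadjusted p under 0.05, beside 1226 of all 11690 genes tested). The largest changes in each list were in EIF2AK3 (0.29), ERLIN2 (-0.31), SIL1 (-0.46), MCFD2 (-0.18), FKBP7 (-0.31), EMC10 (-0.34), SGTA (-0.24), KDELR2 (0.16) and TRAM2 (0.16). After siSHC1 6 were called higher and 2 lower than in siControl, where 3.11% and 3.32% of all tested genes were. Against siNCOA3 10 were called higher and 4 lower, where 5.35% and 4.4% of all tested genes were. With time 0 were called (limma, 11 at an unadjusted p under 0.05, beside 1660 of all 11690 genes tested). The largest changes with time by list were in DDIT3 (0.20), EDEM2 (0.28), PDIA5 (0.39), UGGT2 (-0.18), FKBP7 (0.23), MMGT1 (-0.17), BAG6 (0.20), KDELR3 (0.33) and BTF3 (-0.12).

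Among the sensors and their factors, ATF6, a membrane-bound transcription factor that is cut free under stress, was at 9.70, 10.5 and 6.96 scaled FPKM at 24 h and at 10.5, 10.2 and 7.48 at 48 h. Both siSHC1 libraries were the lowest, and ATF6 was lower than after siNCOA3 by a log2 change of -0.46 ± 0.10 (limma adjusted p = 0.0373). DDIT3 (CHOP), a stress-induced transcription factor, was higher than after siNCOA3 by 0.48 ± 0.10 (limma adjusted p = 0.0290). In ER-associated degradation, SYVN1, the HRD1 ubiquitin ligase, rose over siControl by 0.47 ± 0.08 (limma adjusted p = 0.0280), from 31.8 to 45.6 at 24 h and from 36.8 to 49.7 at 48 h. The membrane factors VIMP (0.49 ± 0.09) and DERL1 (0.45 ± 0.09) rose with it, and VIMP and SYVN1 were also higher than after siNCOA3, by 0.57 each. Of the oxidoreductases, ERO1L, which reoxidises disulfide isomerases, rose over siControl by 0.49 ± 0.11, and TXNDC5 (0.30 ± 0.07) and TMX4 (0.52 ± 0.11) were higher than after siNCOA3. Of 15 alternatives the call was held in 6 for ERO1L, 3 for TXNDC5 and 7 for TMX4, and TXNDC5 was called in none of the 6 fits that left out a library. Against siControl SYVN1 and DERL1 were held in 8 and VIMP in 9, and against siNCOA3 SYVN1 and VIMP were held in 11, DDIT3 in 9 and ATF6 in 8.

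The prolyl isomerase FKBP2 rose over siControl by 0.37 ± 0.08 and was higher than after siNCOA3 by 0.42 ± 0.08, and FKBP7 was higher than after siNCOA3 by 0.58 ± 0.13. Of 15 alternatives these calls were held in 6, 10 and 8. LMAN1, a cargo receptor for glycoproteins that leave the ER, fell from 28.9 to 12.4 scaled FPKM at 24 h and from 26.4 to 14.8 at 48 h after siSHC1. The fitted change was -0.98 ± 0.11 (limma adjusted p = 0.00900). EMC1, a subunit of the ER membrane protein complex that inserts membrane proteins, fell from 26.1 to 10.7 and from 27.1 to 11.9, a change of -1.17 ± 0.09 (limma adjusted p = 0.00202). The other subunits called were EMC2 (0.35 ± 0.08) and EMC7 (0.45 ± 0.10), both higher than after siNCOA3. The EMC2 call was held in 3 of 15 alternatives and in none of the 6 fits that left out a library, that of EMC7 in 8 of 15, and that of EMC1 over siControl in 14 of 15. LMAN1 was held over siControl in 13 of 15. SEC61A2, a second form of the channel's alpha subunit, rose over siControl by 0.62 ± 0.10 (limma adjusted p = 0.0241), from 8.10 to 12.4 at 24 h and from 7.16 to 12.2 at 48 h, held in 10 of 15 alternatives. SEC61A1, at 135 to 154 in the 6 libraries, was not called. TRAM2, a relative of the translocon protein TRAM1, was lower than after siNCOA3, at -0.39 ± 0.08, held in 9 of 15. No gene of tail-anchored insertion and no KDEL receptor was called in any comparison, with BAG6 at 0.21 ± 0.06 and KDELR2 at 0.24 ± 0.07 the largest changes over siControl after siSHC1.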

How the data were processed

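Messenger RNA of 6 MDA-MB-231 libraries was made with a stranded kit, per the labels' protocols. STAR, Cufflinks, DESeq2 and the build hg19 are named in the submitters' processing notes, with no roles given. Although the file's name speaks of read counts, 12 of its 90104 values above 0 are exactly whole. The deposited unit is FPKM, fragments per kilobase of gene scaled to library size, and limma was therefore used in place of a count test. Depth in fragments is unknown, and no detection limit is given. FPKM were scaled by the median of ratios over 11042 genes (factors 0.947 to 1.02). Genes with at least 1 scaled FPKM in at least 2 libraries (11690) were tested on log2(scaled FPKM + 1) with limma 3.58.1 in R 4.3.3 (lmFit, eBayes with trend and robust) on siRNA plus time, with 2 residual degrees of freedom. A first run had filtered on the deposited FPKM. The filter was changed to scaled values after its counts were seen, and both are given. Time pairs the libraries across siRNAs, by the labels.

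The 44 genes and the 9 further lists were chosen with earlier results of these data known. The grouping of 15 folding genes, the motif search and the limit of the closing list to called genes were settled after values were seen. Per-library values are given for those of the 44 genes called in any comparison or with the largest change in a role group, and for some further genes. From each further list the called genes are named, or the largest change. Libraries were simulated over 11690 genes, of which 200 were changed in each comparison. For siSHC1 against siControl the test recovered 98.5% of 67 genes given a log2 change of 0.585, with 7 false calls. For siNCOA3 against siControl and for time, false calls were 9 and 5, where 13 and 3 genes were called in the real libraries. The simulated noise was independent between libraries and set by mean level alone, with no other effect of siRNA or time. The simulated numbers therefore need not hold for the real libraries, where calls moved with single libraries. Promoters came from a RefSeq table on GRCh38.p14, and 3′ UTRs and overlapping genes from GENCODE release 29, matched by symbol. Alternatives tried were equal library totals, no scaling, a pseudocount of 0.1, no filter and a filter of 5 FPKM, plain moderation, fewer libraries, no term for time and leaving out each library. Tables and plots used Python 3.11.15, pandas 2.3.3, numpy 2.4.6 and matplotlib 3.10.9.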

Additional observations from a re-analysis of the deposited data

Results flagged for a closer look

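The values below are log2 differences between single libraries that had opposite signs at the 2 times or between siRNAs. None of these differences was tested, since there is 1 library for each siRNA and time, and many are small. They are listed for the 10 genes called in any comparison. Over all 44 genes, the signs at 24 h and 48 h were opposite in 15 for siNCOA3 against siControl, in 7 for siSHC1 against siControl and in 6 for siSHC1 against siNCOA3. The signs of the change with time were opposite in 24 between siControl and siNCOA3, in 13 between siControl and siSHC1 and in 25 between siNCOA3 and siSHC1. The same counts were not made over all genes tested, so they cannot be read as particular to this set.

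Against siControl, SRPR after siNCOA3 was at -0.028 at 24 h and 0.13 at 48 h, HSP90B1 after siNCOA3 at 0.0079 and -0.29, P4HB after siNCOA3 at 0.082 and -0.23, and RRBP1 after siSHC1 at -0.028 and 0.051. From 24 h to 48 h, 6 of the 7 folding genes called between siSHC1 and siNCOA3 had values above 0 in siControl and below 0 in siNCOA3. So had CANX, DNAJC3, PDIA3, PDIA4 and CRELD2, which were not called, but not P4HB, DNAJB9, DNAJB11 and SDF2L1. For siControl, siNCOA3 and siSHC1 in turn, CALR was at 0.23, -0.029 and 0.30. HSPA5 was at 0.31, -0.055 and 0.13, and HSP90B1 at 0.26, -0.039 and 0.29. HYOU1 was at 0.092, -0.036 and -0.039, PDIA6 at 0.15, -0.096 and 0.27, and MANF at 0.31, -0.070 and 0.24. SSR2 was at 0.095, -0.040 and 0.086, RRBP1 at 0.030, -0.015 and 0.11, and SRPR at -0.062, 0.094 and 0.25.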

How the results depend on the processing

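No change of a called ER gene reversed its sign under the alternatives, nor did those of PDIA6 and MANF after siNCOA3 or P4HB and HSP90B1 after siSHC1, followed though not called. Changes that were not called did: without siNCOA3 at 48 h, 5 folding genes in place of 1 were above 0 after siNCOA3, and without siControl at 24 h, 14 in place of 15 after siSHC1. For siNCOA3 against siControl the number of the 44 genes called was 1, and it was 0 without a filter on low values and 0 without trend and robust moderation. Leaving out each library gave 0 to 1. For siSHC1 against siControl it was 4, and it was 2 without scaling, 1 with equal library totals, 0 without a filter, 1 without trend and robust moderation and 1 without the term for time, which is the block that pairs the libraries. Leaving out each library gave 1 to 5: 1 without either siControl library or the siSHC1 library of 48 h. For siSHC1 against siNCOA3 it was 9, and it was 0 without a filter, 5 without trend and robust moderation and 5 without the time block. Leaving out each library gave 2 (siSHC1 at 48 h) to 10, and 3 without siNCOA3 at 48 h. For time it was 0, and leaving out each library gave 0 to 1, the 1 being P4HB. The causes were not tested. Filtering on the deposited FPKM, chosen after seeing the data, left the number called at 1, 4, 9 and 0, and over all genes gave 13, 757, 1141 and 3 calls against 13, 751, 1139 and 3. Over all genes, 0, 14, 10 and 0 were called without a filter, 3, 316, 742 and 3 without trend and robust moderation, and 9, 226, 450 and 1 without the block. Without scaling, siNCOA3 against siControl gave 7. Leaving out each library gave 2 to 38, 62 to 867, 233 to 1034 and 0 to 64. The adjusted p of SSR2, CALR and HYOU1 against siControl lie just under the threshold, and the 2 residual degrees of freedom limit all tests.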
